A study of Mus musculus with 4 samples.

Results

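The genes described here are 9 kinases, mediators and substrates of DNA damage signalling, *Atm*, *Atr*, *Chek1*, *Chek2*, *Mdc1*, *Topbp1*, *Brca1*, *Trp53bp1* and *H2afx*. They were chosen by symbol, and all 9 stood among the 11598 genes of the deposited table and passed the filter on low values that left 10475 genes for testing. Ribosome-protected fragments (RPFs), the stretches of mRNA that a ribosome shields from nuclease, were sequenced by Ribo-seq from leptotene/zygotene spermatocytes sorted from testes of mice at 12 dpp (days postpartum). The controls are labelled wild type for genotype and are littermate controls in the study's text, and the *Eef1g*-cKO mice lack *Eef1g*, which encodes a subunit of the translation elongation factor complex eEF1, with 2 libraries per genotype. The deletion removes exons 2 to 7 through *Stra8*-GFPCre, a Cre that is active in male germ cells from type A spermatogonia onward, so somatic cells of the testis keep the gene. Whether animals were pooled for a library is not given in the sources used here.

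During the leptotene and zygotene stages, programmed double-strand breaks are made across the genome to start recombination. ATM and ATR are large kinases that respond to broken ends and to single-stranded DNA, and both phosphorylate serine or threonine residues that are followed by glutamine, the SQ/TQ motif. Phosphorylation of the histone variant H2AX at such a site gives γH2AX, which MDC1 reads and spreads along chromatin, while TOPBP1 activates ATR, CHK1 and CHK2 carry the signal on, and BRCA1 and 53BP1 act on opposite sides of the choice between repair pathways. In later prophase the ATR, BRCA1, TOPBP1, MDC1 and H2AX module is known for marking unsynapsed chromosomes and silencing the sex chromosomes.

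The coding sequences below show the target motif that ties the kinases to their substrates, with the serine or threonine codon and the glutamine codon of each pair in capitals. All were read from the RefSeq annotation of GRCm38.p6, lie within a coding exon and run 5′ to 3′ on the coding strand. The *H2afx* window holds the γH2AX serine, and the *Chek1* windows hold the pair of serines through which ATR activates CHK1. The *Chek2* and *Mdc1* windows are the 10 codons of each gene with the most pairs.
H2afx, codons 134 to 143, chr9:44335161-44335190, plus strand: aagaaggccTCGCAGgccTCTCAGgagtac
Chek1, codons 313 to 322, chr9:36713818-36713847, minus strand: aagttctctagtTCCCAGccagagccgaga
Chek1, codons 341 to 350, chr9:36713734-36713763, minus strand: ggcatcagttttTCCCAGcctacgtgtcct
Chek2, codons 21 to 30, chr5:110841273-110841302, plus strand: tgtTCACAGTCCCAGggtggcttcAGCCAG
Mdc1, codons 970 to 979, chr17:35852469-35852498, plus strand: ACTCAGagtctcctcaccTCTCAGAGCCAA
The last pair of *H2afx* starts at codon 140 counted from the start methionine, which is serine 139 in the usual numbering of the mature histone. The pairs shown for *Chek1* start at codons 317 and 345.

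The density of SQ/TQ pairs differed among the members. *Chek2* had 10 pairs in 546 codons, or 1.83 per 100 codons, *Mdc1* had 26 in 1708 (1.52 per 100) and *Trp53bp1* had 29 in 1969 (1.47 per 100). *H2afx* had 2 in 143 codons (1.40 per 100), *Brca1* 21 in 1812 (1.16 per 100) and *Chek1* 5 in 476 (1.05 per 100). The kinase genes *Atm* and *Atr* were lower, with 28 pairs in 3063 codons (0.914 per 100) and 17 in 2641 (0.644 per 100). *Topbp1* had 12 in 1515 (0.792 per 100). All 9 lay above the median of 0.546 per 100 codons over the 11184 genes of the table with a coding sequence, and *Chek2*, *Mdc1*, *Trp53bp1*, *H2afx* and *Brca1* lay above its 90th percentile of 1.14. A pair is a match of codons in frame and not a measured phosphorylation site.

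The depth of the libraries set the precision of each value. The control libraries held 2479504 and 1384282 reads counted on genes, and the *Eef1g*-cKO libraries 223906 and 407979, and the median gene had 60 and 34 reads in the former against 5 and 8 in the latter. *Eef1g* itself had 107 and 58 reads in control replicates 1 and 2 and 0 and 4 reads in *Eef1g*-cKO replicates 1 and 2. Per 1000000 reads, this was a ratio of 0.148 with a 95% counting interval of 0.0399 to 0.387, and the targeted gene was lower in both *Eef1g*-cKO libraries than in either control, in the direction of the labels. In the limma test used below, its log2 fold change of -3.39 (SE 0.91, adjusted p = 0.0731) did not pass. In edgeR it was -2.68 with an adjusted p of 0.00780. A gene that limma does not call here can therefore still differ.

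The cell type markers of the sorted fractions differed between the genotypes. Leptotene/zygotene markers such as *Sycp3* and *Dmc1* were present in all libraries, with 8 of 9 higher in both *Eef1g*-cKO libraries than in either control, and their summed level was 1803 and 1416 FPKM (reads per kilobase of gene per 1000000 counted reads) in control against 4281 and 3854 in *Eef1g*-cKO. Spermatogonial markers had a summed level of 1455 and 1725 FPKM in control, against 240.4 and 224.9 in *Eef1g*-cKO, with 6 of 8 below both controls and none above, and *Gfra1*, *Id4* and *Nanos3* were at 0 in *Eef1g*-cKO replicate 1. Preleptotene markers summed to 708 and 920.4 against 599 and 521, with 3 of 5 below. Only 3 of 6 listed pachytene markers were in the table, with 2 above both controls and 1 below. Their sum of 416 and 311 against 1483 and 1381 was nearly all *Hist1h1t*, so it does not show more pachytene cells. *Piwil1* went the other way, from 8.18 and 2.93 FPKM to 1.13 and 1.24. In testis sections of adults the study detected no H1T protein in *Eef1g*-cKO spermatocytes. Sertoli markers summed to 491 and 109 against 107 and 70.8, mostly *Clu*, with *Gata4* at 0 in both *Eef1g*-cKO libraries. Markers of spermatids, Leydig cells and peritubular cells summed to between 0 and 40.0 FPKM in every library, and none of the 3 macrophage markers was in the table. The part of these marker differences in the results below was not tested, and in bulk samples fewer cells of a type and less RNA per cell cannot be told apart.

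The 9 genes did not move together. Both *Eef1g*-cKO libraries lay above both controls for 5 genes (*Mdc1*, *Topbp1*, *Atr*, *H2afx* and *Chek1*) and below both for 3 (*Atm*, *Chek2* and *Trp53bp1*), and the libraries overlapped for *Brca1* only. Over all tested genes, 24.6% lay above and 37.7% below in this way. The median log2 fold change of the 9 genes was 0.55, beside -0.23 over all tested genes, on the log2(FPKM + 1) scale. With limma, called at a Benjamini-Hochberg adjusted p under 0.05 and a change of more than 1 on the log2 scale, *Mdc1* was increased and none of the 9 was decreased, and over all tested genes 2.87% were called increased and 4.97% decreased. By unadjusted p at the same fold, *Mdc1* was increased and *Trp53bp1* and *Chek2* were decreased, against a background of 7.32% increased and 16.3% decreased. A comparison of 2 libraries against 2 cannot go below a two-sided exact permutation p of 0.333 for a single gene, so each p here rests on the variance that limma shares across genes.

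**Figure D1:**
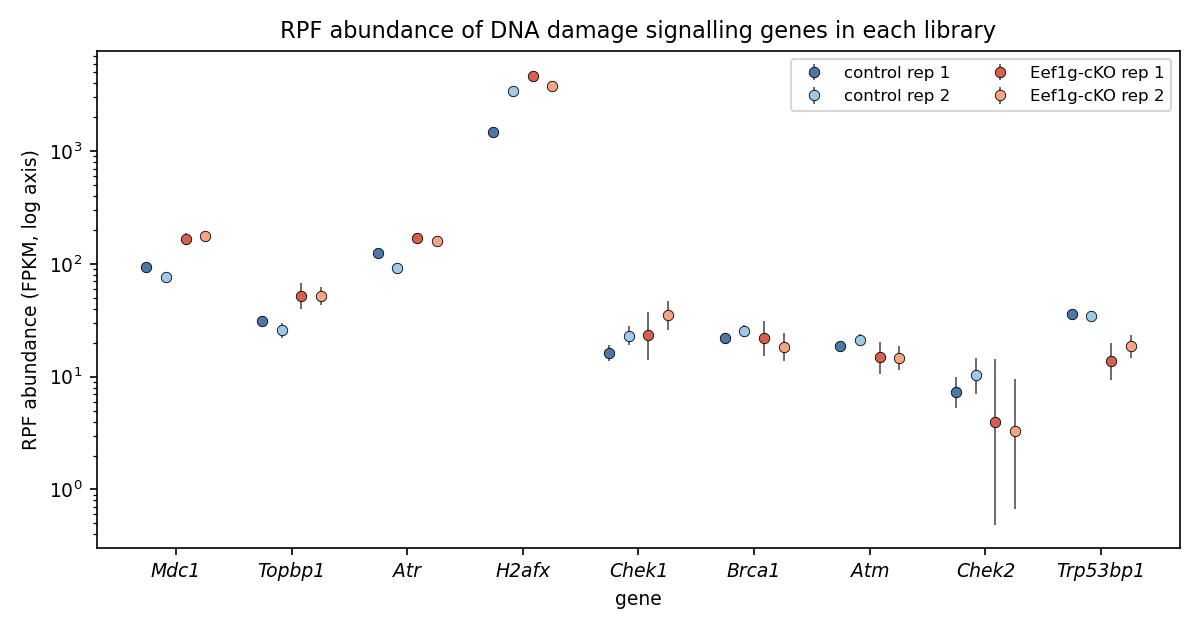
RPF abundance (FPKM, log axis) of the 9 genes in the 2 control and 2 Eef1g-cKO libraries, with bars for exact Poisson 95% intervals that cover counting error only. *Mdc1* lay at 94.7 and 76.2 FPKM in control and at 166 and 177 in *Eef1g*-cKO, and *Trp53bp1* at 36.2 and 34.8 against 13.9 and 18.8.

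Among the mediators, *Mdc1* carried the one change that passed the adjusted test. MDC1 is the adaptor that binds γH2AX and anchors further ATM and ubiquitin ligases at the break. *Mdc1* (chr17:35841495-35859670) had 94.7 and 76.2 FPKM in control replicates 1 and 2 and 166 and 177 FPKM in *Eef1g*-cKO replicates 1 and 2. Both *Eef1g*-cKO values lay above both controls, and the *Eef1g*-cKO libraries differed from each other by less than the controls did. On the log2 scale the fold change was 1.00 (SE 0.21, n = 2 per genotype), with an adjusted p of 0.0482 in limma, and 1.07 with an adjusted p of 0.00143 in edgeR on the reads recovered from the table. In limma the call was at the edge of both thresholds, and in edgeR it was close to the fold threshold only. With any 1 of the 4 libraries left out, the log2 fold change was 0.85 to 1.16, on both sides of the fold threshold. Whether the call holds cannot be judged in such fits, since 1 genotype then has a lone library. *Mdc1* is among the genes that the study displayed from these same libraries, so its direction is not independent evidence. In the study's proteomics, MDC1 protein was among those reduced in *Eef1g*-cKO leptotene/zygotene spermatocytes. RPF abundance was not set against mRNA or protein here, so a higher value for any gene is not a measure of higher protein output.

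*Topbp1*, which encodes the scaffold that switches on ATR, had the next largest positive change among the mediators. *Topbp1* (chr9:103305167-103350428) had 31.5 and 25.7 FPKM in control replicates 1 and 2 and 52.4 and 52.3 FPKM in *Eef1g*-cKO replicates 1 and 2. The *Eef1g*-cKO values nearly coincided and both exceeded the controls. The log2 fold change of 0.86 (SE 0.24, n = 2 per genotype) had a limma adjusted p of 0.0758 and did not pass. In edgeR it was 0.94 with an adjusted p of 0.00653, past the p threshold and short of the fold threshold. With each library centred on its median the value was 1.07 with a limma adjusted p of 0.0483, which passed both.

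*Trp53bp1* encodes 53BP1, the reader of modified nucleosomes that shields broken ends from resection. *Trp53bp1* (chr2:121194835-121296354) had 36.2 and 34.8 FPKM in control replicates 1 and 2 and 13.9 and 18.8 FPKM in *Eef1g*-cKO replicates 1 and 2. The controls nearly coincided and both *Eef1g*-cKO values were lower, from 30 and 74 reads against 864 and 463 in the controls. The log2 fold change was -1.08 (SE 0.28, n = 2 per genotype), with a limma adjusted p of 0.0653, which did not pass, and -1.01 with an adjusted p of 0.00496 in edgeR, which passed. In edgeR *Mdc1* was the one gene of the 9 called increased and *Trp53bp1* the one called decreased, where 8.75% and 11.2% of the 8056 genes it tested were called in these directions.

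*Brca1*, whose product promotes resection and homologous recombination and marks unsynapsed axes, was the one member with overlapping genotypes. *Brca1* (chr11:101488761-101551955) had 21.8 and 25.5 FPKM in control replicates 1 and 2 and 22.2 and 18.4 FPKM in *Eef1g*-cKO replicates 1 and 2. The first *Eef1g*-cKO library lay between the controls. The log2 fold change of -0.21 (SE 0.27, n = 2 per genotype) had a limma adjusted p of 0.624, and a difference was not detectable at this depth.

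The apical kinases had values of opposite sign, and neither passed the limma test. *Atr* (chr9:95857597-95953217) had 124 and 92.3 FPKM in control replicates 1 and 2 and 169 and 158 FPKM in *Eef1g*-cKO replicates 1 and 2. *Atm* (chr9:53437122-53536828) had 18.7 and 21.4 FPKM in control and 14.9 and 14.8 FPKM in *Eef1g*-cKO. *Atr* was higher in both *Eef1g*-cKO libraries and *Atm* was lower in both, and *Atr* was the more abundant of the pair in every library. The log2 fold change of *Atr* was 0.60 (SE 0.23, n = 2 per genotype; limma adjusted p = 0.142), and in edgeR 0.66 with an adjusted p of 0.0340, under the fold threshold. DESeq2 gave *Atr* an adjusted p of 0.0531, and with the coding GC trend removed its log2 fold change was -0.028. That of *Atm* was -0.41 (SE 0.28, n = 2 per genotype), with a limma adjusted p of 0.362 and an edgeR adjusted p of 0.276. ATR protein, like MDC1, was among those reduced in the study's proteomics of sorted *Eef1g*-cKO cells. The study's Western blot of *Eef1g*-cKO testes at 12 dpp also showed less ATR.

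The effector kinases had the fewest reads of the set. *Chek1* (chr9:36708482-36726658), the target of ATR, had 16.3 and 23.2 FPKM in control replicates 1 and 2 and 23.7 and 35.4 FPKM in *Eef1g*-cKO replicates 1 and 2. *Eef1g*-cKO replicate 1 rested on 18 reads and lay just above the higher control. Its log2 fold change was 0.55 (SE 0.33, n = 2 per genotype) with a limma adjusted p of 0.304. *Chek2* (chr5:110839800-110874140), the target of ATM, had 7.36 and 10.3 FPKM in control from 41 and 32 reads, and 3.98 and 3.27 FPKM in *Eef1g*-cKO from 2 and 3 reads. Both *Eef1g*-cKO values were lower, yet their counting intervals, 0.481 to 14.4 FPKM and 0.675 to 9.56 FPKM, reached the lower control value. The ratio of library-scaled reads for *Chek2* was 0.419 with a counting interval of 0.132 to 1.02, and the limma log2 fold change of -1.08 (SE 0.42, n = 2 per genotype) had an adjusted p of 0.154.

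*H2afx*, the single-exon gene of the histone that carries the γH2AX mark, was by far the most abundant member. *H2afx* (H2ax in RefSeq, chr9:44334715-44336077) had 1479.7 and 3414 FPKM in control replicates 1 and 2 and 4660.1 and 3779 FPKM in *Eef1g*-cKO replicates 1 and 2. Both *Eef1g*-cKO values exceeded the controls, but the controls differed from each other by 2.31-fold. Its log2 fold change was 0.90 (SE 0.47, n = 2 per genotype) with a limma adjusted p of 0.248, and it was 0.30 without control replicate 1 and 1.503 without control replicate 2. In edgeR it was 0.87 with an adjusted p of 0.0288, under the fold threshold, and in DESeq2 0.85 with an adjusted p of 0.366. Of the 28-base windows within the *H2afx* coding exon, 31.6% also occurred exactly elsewhere in the genome, against 0% to 1.28% for the other members. Reads of *H2afx* can therefore be shared with other places in the genome, which were not identified, and its level is uncertain.

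Together the 9 genes took 4663 and 6939 of every 1000000 reads in control, and 9732 and 8589 of every 1000000 in *Eef1g*-cKO. *H2afx* made up 43.1% and 66.9% of these control reads and 65.1% and 59.8% of those from *Eef1g*-cKO. Without *H2afx* the other members took 2652 and 2299 of every 1000000 in control, against 3399 and 3454 in *Eef1g*-cKO, so the summed reads remained higher in both *Eef1g*-cKO libraries. *Atr* and *Mdc1* held most of the remainder in every library.

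The order of levels also differed between the genotypes. In control the mean FPKM fell from *H2afx* (2447 ± 1368, SD, n = 2) through *Atr* (108 ± 22.7) and *Mdc1* (85.5 ± 13.1) to *Trp53bp1* (35.5 ± 1.03), *Topbp1* (28.6 ± 4.07), *Brca1* (23.7 ± 2.61), *Atm* (20.1 ± 1.86), *Chek1* (19.7 ± 4.89) and *Chek2* (8.82 ± 2.07). Neighbours in this order had libraries that did not overlap except *Atr* with *Mdc1* and *Atm* with *Chek1*. In *Eef1g*-cKO it fell from *H2afx* (4219 ± 623, SD, n = 2) through *Mdc1* (171 ± 7.68), *Atr* (164 ± 7.24), *Topbp1* (52.4 ± 0.111) and *Chek1* (29.5 ± 8.27) to *Brca1* (20.3 ± 2.64), *Trp53bp1* (16.4 ± 3.48), *Atm* (14.8 ± 0.128) and *Chek2* (3.62 ± 0.497). There *Mdc1* overlapped with *Atr*, and *Brca1*, *Trp53bp1* and *Atm* overlapped from one to the next. *Trp53bp1* was at rank 4 of 9 in control and at rank 7 in *Eef1g*-cKO. Per kilobase of RefSeq coding length in place of the deposited gene length, *H2afx* stayed first and *Chek2* last in both genotypes, *Mdc1* stood above *Atr* in both (with overlapping libraries in control), and *Trp53bp1* was at ranks 4 and 6.

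Ratios between members within a library do not depend on how the libraries are scaled. The pairs were chosen after the values were seen and are a description, with no test. Each sets a member with a positive log2 fold change over one with a negative value. Higher ratios in *Eef1g*-cKO, and the size of the shifts, thus follow from the choice. *Mdc1* over *Trp53bp1*, the adaptors that bind γH2AX and the nucleosomes around it, was 2.62 and 2.19 in control replicates 1 and 2 and 11.9 and 9.38 in *Eef1g*-cKO replicates 1 and 2. The ratio was 4.41-fold higher in *Eef1g*-cKO (difference of mean log2 ratios 2.14, with SDs of 0.18 in control and 0.24 in *Eef1g*-cKO), the largest shift of the 4 pairs compared. *Atr* over *Atm* was 6.64 and 4.32 in control, against 11.3 and 10.7 in *Eef1g*-cKO, 2.06-fold higher. *Topbp1* over *Brca1* was 1.44 and 1.01 in control, against 2.36 and 2.84 in *Eef1g*-cKO, 2.15-fold higher. In each of these pairs both *Eef1g*-cKO libraries lay above both controls. *Chek1* over *Chek2* was 2.21 and 2.25 in control, against 5.95 and 10.8 in *Eef1g*-cKO, but with intervals of 1.43 to 52.9 and 3.49 to 54.2 from 2 and 3 *Chek2* reads.

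**Figure D2:**
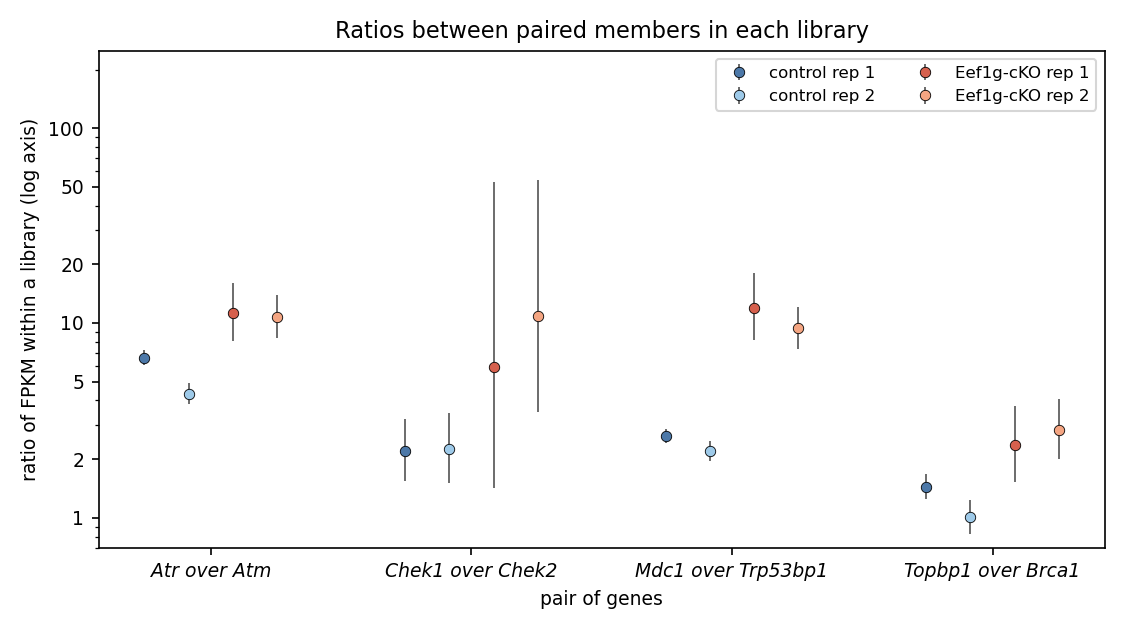
Ratio of FPKM between 2 members within a library (log axis) for 4 pairs in the 4 libraries, with bars for exact 95% intervals that cover counting error only. *Mdc1* over *Trp53bp1* was 2.62 and 2.19 in control, against 11.9 and 9.38 in *Eef1g*-cKO, and the *Eef1g*-cKO bars of *Chek1* over *Chek2* are wide.

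Values of several members moved when base composition was taken into account. The GC content of the coding sequence ran from 41.1% in *Atr*, 42.7% in *Atm* and 43.0% in *Chek1* to 53.2% in *Mdc1* and 69.7% in *H2afx*, beside a median of 52.97% over genes with a coding sequence. In a setting added after the data were seen, with the trend on coding GC removed, the log2 fold change of *Mdc1* was 1.05 (limma adjusted p = 0.0399) and that of *Trp53bp1* -1.20 (limma adjusted p = 0.0527). In the other setting added in this way, with the trend on coding length removed, *Mdc1* was at 0.90 and was not called, being under the fold threshold, and *Trp53bp1* at -1.18 (limma adjusted p = 0.0346) was the one member called. Among the AT-rich kinases, removal of the coding GC trend took *Atr* from 0.60 to -0.028, *Chek1* from 0.55 to 0.0082 and *Atm* from -0.41 to -0.97. In the same setting *Topbp1* went from 0.86 to 0.50, *Brca1* from -0.21 to -0.58, *Chek2* from -1.08 to -1.38 and *H2afx* from 0.90 to 1.47. With the coding GC trend removed *Atr* and *Chek1* were near 0, and the other members had the same sign as before.

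**Figure D3:**
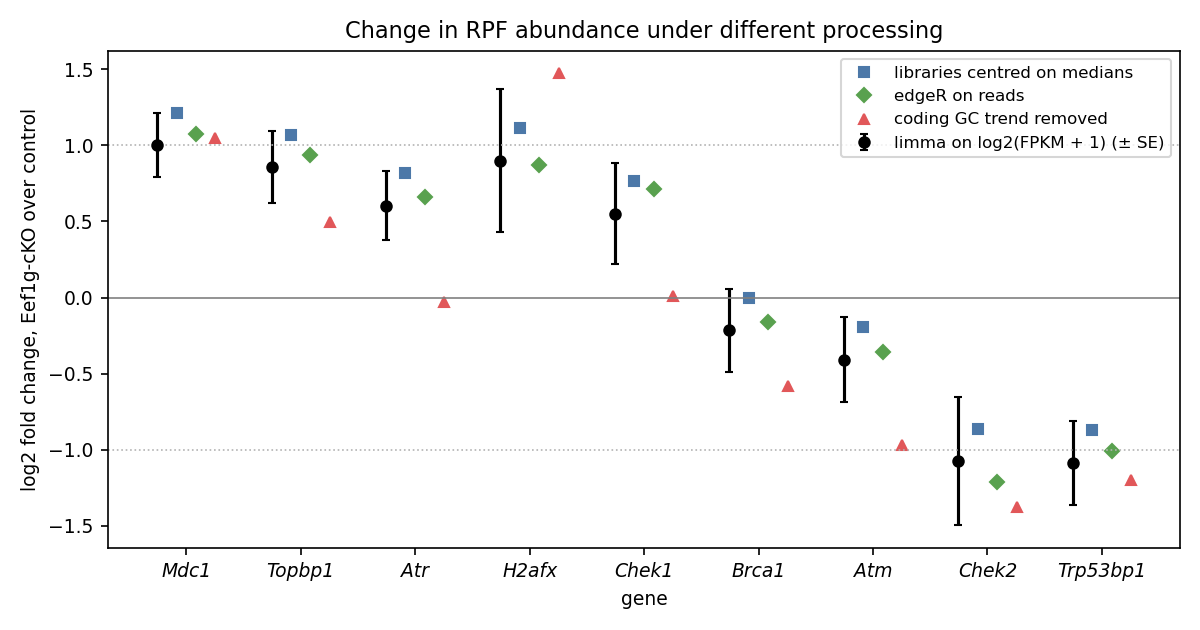
Log2 fold change of each member, Eef1g-cKO over control, with limma on log2(FPKM + 1) (black, bars are SE) and under 3 other settings (no bars); dotted lines mark the fold threshold. *Mdc1* stayed between 1.00 and 1.22 across these settings, whereas *Atr* fell from 0.60 to -0.028 and *Chek1* from 0.55 to 0.0082 once the trend with coding GC was removed.

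The surrounding pathway was read from 7 lists of 77 genes, of which 73 were in the table and 70 were tested. By limma adjusted p and fold, 2 were increased (2.86%, beside 2.87% of all tested genes) and 6 decreased (8.57%, beside 4.97%), and 32 were higher and 38 lower in *Eef1g*-cKO with a median log2 fold change of -0.27. With libraries centred on their medians the limma calls of these lists were 5 increased (7.14%) and 3 decreased (4.29%). Over all tested genes the calls went from 301 increased and 521 decreased to 521 and 383. The balance thus turned with the scaling over the whole table and not only in these lists. In edgeR 4 of 68 genes of these lists were increased (5.88%, beside 8.75% of all genes) and 9 decreased (13.2%, beside 11.2%). In DESeq2 3 of 69 were increased (4.35%, beside 5.94%) and 5 decreased (7.25%, beside 5.34%). By limma's unadjusted p 3 and 9 of 70 passed, beside 7.32% and 16.3% of all tested genes. Calls in both directions were thus present in these lists, as they were over all tested genes. Among the 9 genes, limma's adjusted test called *Mdc1* only, and edgeR and DESeq2 also called *Trp53bp1*, as decreased.

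Upstream of the kinases, the list of ATR loading and activation factors had 1 of 17 genes increased and 1 decreased, with a median log2 fold change of 0.23. *Hormad1*, which encodes the axis protein that recruits ATR to unsynapsed chromosomes, had 140.3 and 75.3 FPKM in control and 503 and 511 FPKM in *Eef1g*-cKO. Its log2 fold change was 2.29 (SE 0.32, limma adjusted p = 0.0296), and it too was displayed by the study from these libraries. *Clspn*, the adaptor through which ATR reaches CHK1, fell from 62.7 and 75.7 FPKM to 28.7 and 32.5 FPKM, with a log2 fold change of -1.15 (SE 0.23, limma adjusted p = 0.0455). The clamp loader gene *Rad17* (log2 fold change 0.85) and the axis gene *Hormad2* (0.99) had positive values, and the single-strand binding gene *Rpa2* (-0.68) and the fork protector gene *Timeless* (-0.73) negative ones, with limma adjusted p of 0.0732 to 0.120, so none of these passed with limma, and *Hormad2* was called increased in edgeR. HORMAD2 protein was among those reduced in the study's proteomics.

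At the broken end, 1 of 8 sensing genes was increased and 1 decreased, with a median of -0.49. *Xrcc6*, encoding the Ku70 subunit of the end-joining sensor, fell from 90.3 and 129 FPKM to 38.0 and 42.9 FPKM (log2 fold change -1.40, SE 0.26, limma adjusted p = 0.0383). *Rint1*, whose product binds RAD50, rose from 19.5 and 23.0 FPKM to 47.9 and 57.8 FPKM (log2 fold change 1.27, SE 0.25, limma adjusted p = 0.0426). The Ku80 gene *Xrcc5* had a log2 fold change of -0.86 and *Mre11a* one of -0.58, with limma adjusted p of 0.123 and 0.153. Among the relatives of ATM and ATR and the chaperone that stabilises this kinase family, 1 of 7 genes was called by limma, edgeR and DESeq2 alike, with a median of 0.08. It was *Trrap*, the member of the family without kinase activity, which fell from 30.1 and 25.8 FPKM to 6.80 and 7.86 FPKM (log2 fold change -1.79, SE 0.30, limma adjusted p = 0.0352).

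Downstream of *Mdc1*, none of the 6 tested ubiquitin ligase genes and their partners passed the adjusted test with limma, while 1 was increased and 2 decreased by unadjusted p, edgeR called *Usp3* increased and *L3mbtl2* decreased, DESeq2 called *Usp3* increased, and 5 were lower in both *Eef1g*-cKO libraries than in either control. Over all tested genes these shares were 7.32% and 16.3% by unadjusted p, and 37.7% below both controls. *Usp3*, a deubiquitinase of H2A, had 14.7 and 18.1 FPKM in control and 32.0 and 40.0 FPKM in *Eef1g*-cKO (log2 fold change 1.08, limma adjusted p = 0.0653). *L3mbtl2* had a log2 fold change of -1.14 (limma adjusted p = 0.0730) and *Herc2*, a ligase that acts with RNF8, one of -0.72 (limma adjusted p = 0.132).

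Around *Brca1*, 1 of 11 partners was called, in limma and edgeR but not in DESeq2, with a median of 0.04. *Babam1*, of the BRCA1-A complex that binds ubiquitin chains, fell from 62.3 and 71.2 FPKM to 30.9 and 24.6 FPKM (log2 fold change -1.24, SE 0.24, limma adjusted p = 0.0417). *Uimc1*, which encodes the ubiquitin reader RAP80 of the same complex, had a log2 fold change of 0.78 (limma adjusted p = 0.0683), so these subunits of 1 complex had values of opposite sign. Around *Trp53bp1*, 1 of 6 tested effector genes was called by limma, with a median of 0.29. It was *Nudt16l1*, whose product TIRR binds 53BP1 and keeps it off chromatin, with 72 and 61 control reads against 1 and 1 from *Eef1g*-cKO. The ratio of library-scaled reads was 0.0920 with a counting interval of 0.0110 to 0.339, and the limma adjusted p was 0.0296. edgeR, which tested 7 genes of this list, also called *Dclre1c* decreased (adjusted p = 0.0285), a gene under limma's filter that is named after its values were seen, with 28 and 17 control reads against 0 and 0.

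Of the checkpoint effectors, 1 of 15 tested genes was called, with a median of -0.69. *Plk1*, encoding a mitotic kinase that ends checkpoint arrest, fell from 86.4 and 137 FPKM to 42.6 and 43.4 FPKM (log2 fold change -1.32, SE 0.28, limma adjusted p = 0.0482). *Wee1*, the inhibitory kinase of CDK1 (called decreased in edgeR), had a log2 fold change of -1.11 and the phosphatase gene *Cdc25a* one of -0.87, with limma adjusted p of 0.0569 and 0.104. *Mdm2*, the ubiquitin ligase of p53, had a log2 fold change of 0.85 (limma adjusted p = 0.0777). The spermatogonial markers given above were lower by 6.83-fold in sum in the same *Eef1g*-cKO libraries, and a link to the checkpoint genes was not tested.

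**Figure D4:**
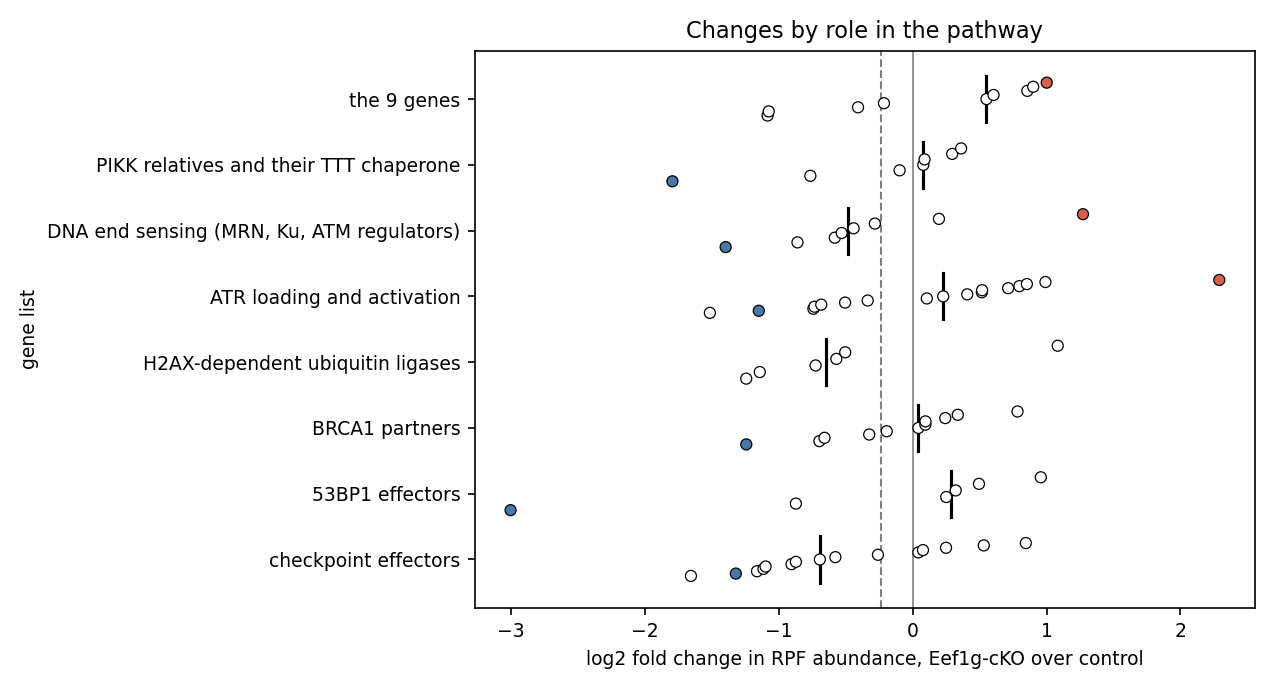
Log2 fold change in RPF abundance, Eef1g-cKO over control, of the 9 genes and of each pathway list; each point is a gene, filled red where increased and blue where decreased by limma adjusted p and fold, short bars are list medians and the dashed line is the median of all tested genes (-0.23). The 9 genes split into 5 above and 4 below 0, and the lists hold 2 increased and 6 decreased genes, which were 5 and 3 with libraries centred on their medians.

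The genes whose values over the 4 libraries were nearest to the median profile of the 9 genes, out of 7071 compared, were *Abhd5*, *Srprb* and *Tmem199*, with root mean square differences of 0.0873, 0.0899 and 0.0910 on the log2 scale. Their own log2 fold changes were 0.08, 0.08 and 0.15. Because members of the set moved in both directions, this median profile is nearly flat and describes no single member.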

How the data were processed

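Ribo-seq libraries were made by the study with the QEZ-seq kit from sorted spermatocytes, and per the methods reads were trimmed, quality filtered, aligned to the genome and examined with RiboMiner. The submitters' processing notes list cutadapt, Bowtie and STAR and the builds mm10 and hg38 without roles; the counter and gene annotation are not given in the sources used here. The deposited table gives FPKM per library, which the authors computed per kilobase of gene length and 1000000 counted reads. It also gives a signal, the normalized counts, made by the authors through dividing each library's counts by a size factor; 100% of these were whole reads in each library (tolerance 0.01), and 100% of FPKM were reproduced from them. Columns of the authors' own fold changes, errors and p-values were not used.

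Genes whose mean was 1 FPKM or more were tested with limma 3.58.1 (R 4.3.3; lmFit, eBayes with trend) on log2(FPKM + 1), which understates changes of low genes, with Benjamini-Hochberg adjustment over all 10475 genes. edgeR 4.0.16 (quasi-likelihood, TMM) and DESeq2 1.42.0 were run on the recovered reads as alternatives, and the fits were tested on simulated data. The named genes are the 9 members, every pathway gene called by adjusted p, up to 4 more per list by size of change among those with unadjusted p under 0.05, a mean of 5 FPKM or more and no overlap of genotypes, *Eef1g*, and the 3 genes nearest to the members' median profile. Members and lists were chosen with earlier results of these data known. The submitters call the replicates biological; same-numbered libraries did not deviate together (r = -0.01 over 10475 genes) and were not paired. Intervals are exact Poisson or binomial 95% intervals of the reads and cover counting error only, since the reads are not known to be independent molecules. Sequences and coordinates are from RefSeq GRCm38.p6, to which 10966 symbols matched directly and 599 by an older symbol, with 33 unmatched; its gene models may differ from those behind the deposited lengths. Strand use in counting is not given in the sources used here, so reads of overlapping antisense genes cannot be told apart.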

Additional observations from a re-analysis of the deposited data

How the results depend on the processing

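The number of the 9 genes called by adjusted p was 1 with limma. It was 0 with a pseudocount of 0.1 or 5, with no filter on low values, with a prior variance without a trend and with libraries thinned to the same reads, where 3, 0, 2, 3 and 0 were called by unadjusted p in that order of naming. Over all genes tested, 0 were called without the trend and 0 with thinned libraries, so no member could be called there. Increased and decreased calls over all genes were 301 and 521 in the main limma fit. They were 29 and 47 with a pseudocount of 0.1, 354 and 706 with a pseudocount of 5, and 205 and 373 with no filter. The number of members called was 2 with a filter of a mean of 5 FPKM, in edgeR with TMM or DESeq2 size factors and in DESeq2 (*Mdc1* and *Trp53bp1* in each), and 2 with libraries centred on their medians (*Mdc1* and *Topbp1*). With 1 library left out, the log2 fold change of *Mdc1* was 0.85 to 1.16 and that of *Trp53bp1* -1.29 to -0.88. The 3 calls by unadjusted p became 0 with a pseudocount of 5 and 0 with thinned libraries. The median log2 fold change of 0.55 was 0.77 with centred libraries, 0.27 to 0.56 with 1 library left out, and -0.028 with the coding GC trend removed, under which *Atr* was also -0.028. The 8 pathway genes called by adjusted p became 0 with a pseudocount of 0.1, without the trend and with thinned libraries (12, 12 and 11 by unadjusted p), 5 with no filter, 13 in edgeR with either size factors, and 0 to 10 with 1 library left out (0 without control replicate 1 or without control replicate 2). A lone library of a genotype is assumed there to vary like the other genotype. Centring moved the median of all tested genes by 0.21 and the share of adjusted calls that were increased from 36.6% to 57.6%; in DESeq2 this share was 52.7%. With centring the pathway calls by adjusted p were 5 increased and 3 decreased in place of 2 and 6, and by unadjusted p 7 and 5 in place of 3 and 9. With the coding length trend removed the 1 member called by adjusted p was *Trp53bp1* in place of *Mdc1*. The cause of these shifts was not tested.

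With the replicate block, the members called by adjusted p were 1 (*Mdc1*, log2 fold change 1.00, limma adjusted p = 0.0423) and by unadjusted p 2, and the pathway genes 9 and 13. Thinned to the shallowest library, *Chek2* had a log2 fold change of -0.00045.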
